A study of Mus musculus with 24 samples.

Results

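The change from day 0 to day 7 of neural differentiation was followed in 8 mouse embryonic stem (ES) cell lines: the 8 day 7 libraries against the 8 day 0 libraries, each line paired with itself, which are 16 of the 24 libraries of the series. The genes described as shared are those that passed the paired test over all 8 lines and moved in the same direction in every line. They numbered 3069 of the 15919 genes tested and of the 17545 genes listed, 1807 of them higher at day 7 and 1262 lower.

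ES cells carry an open pluripotent program, held by Pou5f1 (OCT4), Sox2 and Nanog together with a set of naive factors that depend on the cytokine LIF. When LIF is taken away in a serum-free medium, mouse ES cells leave the naive state, pass through a formative, epiblast-like state and then take up neural progenitor and neuronal programs, with retinoic acid and FGF signals setting their position along the body axis. Polycomb group proteins keep many developmental regulators, Hox genes among them, silent in ES cells until then.

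The lines were derived from blastocysts and had 1 of 4 genotypes: wild type, knockout of Cdc14a, knockout of Cdc14b, and knockout of both (Cdc14ab KO). Cdc14a and Cdc14b encode phosphatases that reverse phosphorylation by cyclin-dependent kinases, and the series links them to UTF1, a chromatin factor of pluripotent cells. Each genotype was represented by 2 clones, numbered 1 and 3, and the labels do not give the alleles, the cells in which they were made or the sex of the lines. Day 0 cells had been grown on feeder cells in medium with LIF and then, for all samples, on gelatin at low density to take the feeders away. For differentiation the LIF medium gave way to N2B27 with the growth factors EGF and FGF2, and the cells were reseeded at high density on laminin at day 6 without the growth factors, and collected a day later. All 4 genotypes received the same treatment, and a parallel culture kept in LIF for 7 days was not analysed here, so the change with day includes medium, substrate, density and time in culture together. In such bulk RNA, fewer cells of a type and less RNA per cell cannot be told apart.

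Libraries of 3′ ends of polyadenylated RNA held 6422883 to 10040787 reads. Levels are normalized counts, which are not divided by length and are therefore compared between days and not between genes. Fold changes are on the log2(normalized count + 1) scale, which understates the change of genes near 0, and are given ± standard error over the 8 lines. Adjusted p-values are from limma over all 15919 genes. The first principal component held 39.3% of the variance and put every day 0 library between -97.1 and -45.2 and every day 7 library between 37.5 and 89.3. The Cdc14ab KO clone 1 library of day 0 stood apart on the second component, at -113.7 against 1.48 to 54.6 for the other 7 day 0 libraries. It also had the highest share of reads on Gm42418, a gene that overlaps ribosomal RNA sequence, at 8.70%, and the most genes without a read, at 5.23%. The wild-type clone 3 library of day 7 is called not differentiated in 1 label field and day 7 in the others. Its values went with the other day 7 libraries, since it had the highest first component of all 16 libraries.

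Of the 15919 genes, 5235 (32.9%) changed between day 0 and day 7. The 2919 genes that rose made up 18.3% and the 2316 that fell made up 14.5%, and these are the background shares for every gene list below. Of the changed genes, 3069 (19.3% of those tested) moved in the same direction in all 8 lines, of which the higher ones were 11.4% and the lower ones 7.93% of the genes tested. In 875 genes (5.5%) every day 7 library lay above every day 0 library, and in 510 genes (3.2%) every day 7 library lay below. The shared genes that rose did so by a median log2 fold change of 1.58, or 2.98-fold, and the shared genes that fell did so by a median of -1.12, or 2.17-fold. Large changes were mostly rises: 261 shared genes rose by 3 or more on the log2 scale and 23 fell by as much. The median over all genes tested was 0.03.

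**Figure D1:**
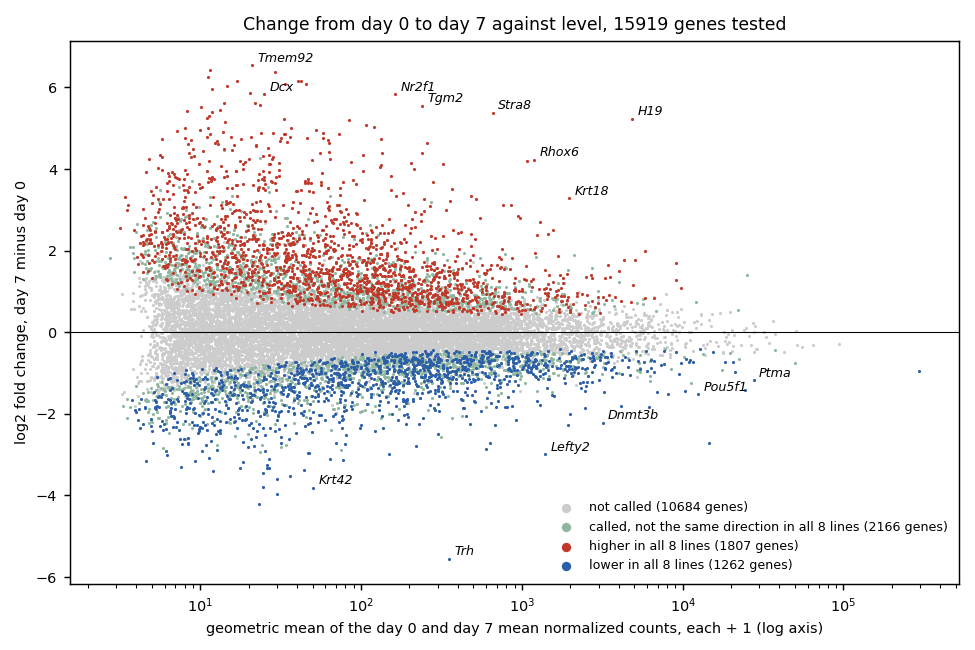
Log2 fold change from day 0 to day 7 of each gene tested (vertical axis) against its level, the geometric mean of the mean normalized counts of the days, each plus 1 (horizontal log axis). Red and blue points are the 1807 and 1262 genes that changed in the same direction in all 8 lines; rises reach further from 0 than falls, with 261 shared genes at 3 or above and 23 at -3 or below.

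Genes that rose started low and genes that fell started high. The shared higher genes had a median level of 32.7 normalized counts at day 0, 60.8 at day 2 and 128.5 at day 7, and their share of all normalized counts went from 3.60% over 5.77% to 10.1%. The shared lower genes had median levels of 212.7, 146.5 and 95.9 on the same days, and their share went from 19.5% over 15.5% to 10.8%. Day 2 was not used to choose the genes, and it lay between the others for both groups. Line by line, the median change of the shared higher genes was between 1.32 (Cdc14b KO clone 1) and 1.64 (Cdc14ab KO clone 1). For the shared lower genes it was between -0.85 (wild-type clone 3) and -1.08 (Cdc14b KO clone 3) in 6 lines, -1.09 in Cdc14ab KO clone 3 and -1.54 in Cdc14ab KO clone 1, the line whose day 0 library stood apart.

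The targeted genes were no check of the genotypes here. Cdc14a had 4.22 to 21.8 normalized counts at day 0 and 4.37 to 10.2 at day 7, and its highest value was in a Cdc14a KO line. Cdc14b had 233 to 325 normalized counts at day 0 in the 4 lines labelled as lacking it and 104 to 168 in the 4 others, and 101 to 157 against 164.0 to 196 at day 7. Reads of 3′ ends can lie outside the deleted part of a gene, and that part is not given. Utf1 stood at 1142 to 2966 (median 1583) at day 0 and 411 to 2012 (median 888) at day 7. It was lower at day 7 in 6 of 8 lines and did not pass the test (log2 fold change -0.78 ± 0.32, adjusted p = 0.08).

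The day 0 cells carried the markers of their label. Pou5f1 ranged from 13594 to 39102 normalized counts, Sox2 had a median of 1851, Nanog of 271, Esrrb of 1073 and Zfp42 (REX1) of 699.

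Most of the tested targets and genes of the retinoic acid pathway rose. Retinoic acid is made from retinol, binds nuclear receptors of the RAR family at their target genes and is broken down by CYP26 enzymes. Of the 16 pathway genes tested, 12 were higher at day 7 and 1 (Rara, a receptor) was lower, with a median log2 fold change of 2.60 against 0.03 for all genes tested. The 3 that did not pass included the CYP26 gene Cyp26a1 (log2 fold change 0.79, adjusted p = 0.31). The others were Crabp2 (log2 fold change 1.15, adjusted p = 0.054) and Rbp4 (log2 fold change 0.48, adjusted p = 0.49). The filter on low values keeps a gene that is high on either day: 5 of the 16 needed day 7 libraries to pass, which favours a higher level there, and of the 11 that also passed at day 0, 9 were higher and 1 lower. Stra8, the retinoic acid-responsive gene of meiotic entry, is annotated at chr6:34920163-34939344 on the plus strand (GRCm38) and had 33.8 to 211 normalized counts at day 0 (median 77.4) and 1559.5 to 6959.8 at day 7 (median 4229). Each day 7 library was above each day 0 library (log2 fold change 5.39 ± 0.28, adjusted p = 3.3e-07). Its level at day 2 already had a median of 928. Stra8 is shown with parts of its promoter window, which was placed by the RefSeq start of the gene. It is shown because the window holds the core site AGGTCA, the core of retinoic acid receptor binding elements, at 2 places. Both places lie inside the gene interval given above, which begins further upstream than the RefSeq start. In capitals is the core site, in windows from RefSeq on GRCm38.p6, plus strand:
Stra8, chr6:34920743-34920770, core site from base -194: atggggtgaaaAGGTCAtcttgctcctt
Stra8, chr6:34920899-34920926, core site from base -38: cctggggtaccAGGTCAgttttttacct
The core site, read on both strands, is in 14.7% of the 11031 promoter windows of the same kind found for genes tested, so its presence is a description of this window only.

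Cyp26b1, which breaks retinoic acid down, had 3.8 to 34.1 normalized counts at day 0 (median 10.2) and 81 to 1171 at day 7 (median 419) (log2 fold change 5.21 ± 0.45, adjusted p = 8.5e-06). Nr2f1 and Nr2f2, orphan nuclear receptors of the COUP-TF class, followed. Nr2f1 was at 8.32 to 32.1 (median 12.9) at day 0 and 144 to 4315 (median 953) at day 7 (log2 fold change 5.83 ± 0.63, adjusted p = 4.1e-05). Nr2f2 rose from a median of 8.34 to 251 (log2 fold change 4.64 ± 0.42, adjusted p = 1.1e-05). Meis1 and Meis2, homeodomain partners of Hox proteins, also rose, Meis1 from a median of 23.3 to 478 (log2 fold change 4.04, adjusted p = 4.4e-05). Meis2 reached 192 to 1403 at day 7 after 0.898 to 30.9 at day 0 (log2 fold change 5.08, adjusted p = 4.3e-05). For all these genes the day 0 and day 7 libraries were fully apart. Tgm2, a transglutaminase known as retinoid-inducible and not on the list, was among the 15 largest rises. It had 17.8 to 51.1 normalized counts at day 0 (median 30.9) and 644 to 6156 at day 7 (median 1220.2) (log2 fold change 5.55 ± 0.31, adjusted p = 3.9e-07).

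Hox genes encode the homeodomain factors of head-to-tail position. Of the 33 on the list 26 were among the genes listed and 20 passed the filter on low values. Of these 20, 13 needed day 7 libraries to pass it, which favours a higher level there, so the count of 19 higher and 0 lower (median log2 fold change 3.37) is a description. Of the 7 that passed at day 0 as well, 6 were higher. The exception was Hoxc6, and 15 of the 19 rose in all 8 lines. Hoxa4 had 0 to 8.89 normalized counts at day 0 (median 2.5) and 18.2 to 277 at day 7 (median 67.7), with no overlap between days (log2 fold change 4.80 ± 0.41, adjusted p = 7.4e-06). Hoxb4 rose from a median of 8.15 to 331 (log2 fold change 4.75 ± 0.43, adjusted p = 1.1e-05). Hoxb5 rose from a median of 12.6 to 338 (log2 fold change 4.86 ± 0.59, adjusted p = 8.2e-05). The spread between lines was wide: Hoxb3 reached 13.4 to 795 at day 7 after 0 to 10.7 at day 0. Hoxb1, the earliest gene of its cluster to be switched on in the embryo, was highest at day 2, with medians of 3.8, 133 and 51.2 at days 0, 2 and 7. The Hox sum ran from 83.5 to 220.0 normalized counts over the day 0 libraries and from 502.8 to 5626 at day 7. With a pseudocount of 5 the Hox median was 1.99.

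**Figure D2:**
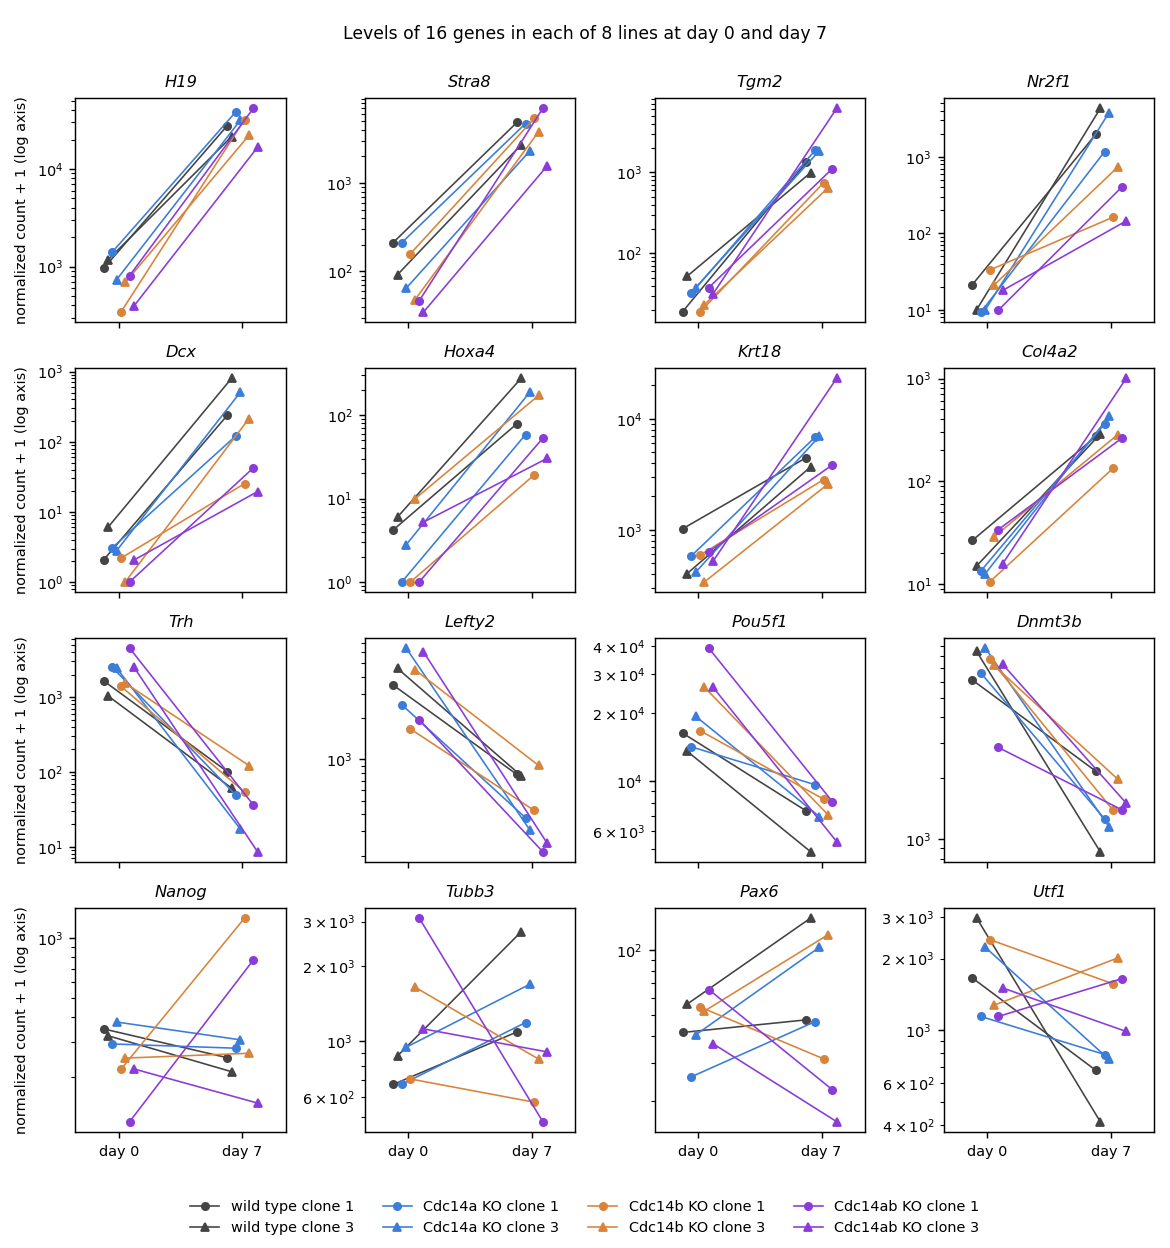
Normalized count + 1 (log axis) of 16 genes at day 0 and day 7, a line per ES cell line, coloured by genotype, circles for clone 1 and triangles for clone 3. In the upper 12 panels every line moves the same way, while Nanog, Tubb3, Pax6 and Utf1 in the bottom row rise in some lines and fall in others.

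Neural genes rose in part, and the rise was uneven between lines. Of 19 neural progenitor genes tested 9 were higher and 1 (Olig2) lower, a median log2 fold change of 1.38. Of these, 5 needed day 7 libraries to pass the filter, and of the other 14 members 5 were higher. Irx3, a homeodomain factor of the neural tube, rose in every line, from 25.3 to 75.8 normalized counts at day 0 to 584 to 4637 at day 7 (log2 fold change 4.38 ± 0.38, adjusted p = 8.6e-06). Sox1, the earliest marker of neural commitment, rose in 7 of 8 lines (log2 fold change 2.45 ± 0.49, adjusted p = 0.0024) and stood higher at day 2 than at day 7, with medians of 11.3, 161 and 66.4. Its exception was Cdc14ab KO clone 3. Pax6, a factor of radial glia and of the forebrain, had 25 to 64.5 normalized counts at day 0 (median 45.8) and 15.1 to 139 at day 7 (median 46.1). It did not pass (log2 fold change 0.17 ± 0.37, adjusted p = 0.75). Nor did Nes, which encodes the progenitor filament nestin (log2 fold change 0.11 ± 0.44, adjusted p = 0.87).

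Neuronal genes gave 10 higher and 2 lower of 27 tested, a median of 0.89. Day 7 libraries were needed for 7 of them to pass, and of the other 20 members 5 were higher. The largest rise was in Dcx, the microtubule protein of migrating young neurons, which went from 0 to 5.01 normalized counts at day 0 to 18.5 to 802 at day 7 (log2 fold change 5.83 ± 0.52, adjusted p = 9.2e-06). Its lowest and highest day 7 values, in Cdc14ab KO clone 3 and wild-type clone 3, were still above all day 0 values. Other neuronal genes rose in all lines. The transcription factor gene Onecut2 rose from a median of 12.2 to 159 (log2 fold change 3.69, adjusted p = 0.00029). Elavl4, an RNA-binding protein of neurons, rose from a median of 12.5 to 111 (log2 fold change 3.05, adjusted p = 0.001). The adhesion molecule Ncam1 rose from a median of 74.4 to 445 (log2 fold change 2.59, adjusted p = 3.8e-05). Nhlh2, also a transcription factor of neuronal lineages, was without a read in 5 of the 8 day 0 libraries and had a day 7 median of 49.6 (adjusted p = 8.3e-06). Dcx and Nhlh2 were among the members that needed day 7 libraries to pass the filter, which favours a higher level there. Tubb3, Map2 and Stmn2, markers of the neuronal cytoskeleton, did not pass over the 8 lines. Tubb3, a tubulin of neurons, stood at 672 to 3098 (median 909.8) at day 0 and 477 to 2730.0 (median 997) at day 7 (log2 fold change -0.03 ± 0.38, adjusted p = 0.96). Map2, of dendritic microtubules, had medians of 85.3 and 371 (log2 fold change 1.69 ± 0.63, adjusted p = 0.055). Stmn2, a tubulin-binding protein, had 1075 and 822 (log2 fold change -0.50 ± 0.29, adjusted p = 0.2). The proneural genes Neurog1 and Neurog2 were not tested, being absent from the genes listed or below the filter on low values.

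Axon guidance and synapse genes were 16 higher and 2 lower of 31 (median 1.31), and 8 higher and 2 lower of the 21 that also passed the filter at day 0. Slit1, a secreted repellent of growing axons, rose from a median of 4.91 to 179 with no overlap (log2 fold change 4.66 ± 0.43, adjusted p = 1.1e-05). Its receptor Robo2, without a read in 6 day 0 libraries, had a day 7 median of 13.6 (adjusted p = 3.5e-05). Slit1 and Robo2 needed day 7 libraries to pass the filter, which favours a higher level there. Nrp1, a semaphorin receptor, rose in all lines from a median of 11.2 to 72.5 (log2 fold change 2.32 ± 0.35, adjusted p = 0.00039). The proneural and Notch list was split, 4 higher and 4 lower of 15 (median -0.19). Without the member that needed day 7 libraries to pass the filter, it was 3 higher and 4 lower of 14. Gadd45g and Btg2, which mark cells about to leave the cell cycle in the developing nervous system, rose in all 8 lines (log2 fold change 1.07, adjusted p = 0.00065; log2 fold change 1.09, adjusted p = 0.0014 for Btg2). The Notch ligand Dll1 and the Notch-modifying enzyme Lfng fell (log2 fold change -1.72, adjusted p = 0.0093; log2 fold change -1.34, adjusted p = 0.019 for Lfng), each in 7 of 8 lines. Both calls were lost without the lines high in Gm42418 at day 0, and that of Lfng also over the 4 genotype pairs. Glial genes were 4 higher and 1 lower of 9 tested (median 0.41). Among the 7 that also passed the filter at day 0, 2 were higher and 1 lower. Mbp, the myelin basic protein gene that ES cells also transcribe at a low level, rose from a median of 64.5 to 182 (log2 fold change 1.53 ± 0.23, adjusted p = 0.00038). Slc1a2 and Aldh1l1 of the same list also rose in all 8 lines (log2 fold change 3.37, adjusted p = 0.00024; log2 fold change 1.53, adjusted p = 0.017 for Aldh1l1). The glial markers Gfap, Aqp4 and Sox10 were not tested, and S100b did not pass (log2 fold change 0.41, adjusted p = 0.71). The oligodendrocyte factors Olig1 and Olig2 fell from a median of 181 to 34.9 and from a median of 25.8 to 3.72 (adjusted p = 0.048 and 0.03). Olig1 was lower in 6 lines and higher in 2. At day 0 it was at 210 to 234 in the wild-type and Cdc14a KO lines and 152 in Cdc14ab KO clone 3. In the remaining lines it was at 1.27 to 3.56, near the floor, so its median hides a split between lines. The Olig calls were lost when single lines were left out, with adjusted p up to 0.115 for Olig1 (without Cdc14ab KO clone 3) and 0.0796 for Olig2 (without wild-type clone 3).

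Genes of lineages outside the nervous system were also among those that rose. Trophectoderm genes were 8 higher and 0 lower of 13 (median 2.39) and endoderm genes 9 higher and 0 lower of 10 (median 1.72), with the matrix genes Col4a1, Col4a2 and Sparc among them. Mesoderm genes were 5 higher and 2 lower of 11 (median 0.54, and 3.05 when only genes with at least 50 normalized counts were tested). Day 7 libraries were needed to pass for 2 of the 13, 3 of the 10 and 5 of the 11. Of the members that also passed at day 0, 6 of 11, 6 of 7 and 1 of 6 were higher. The first list included keratins of simple epithelia. Krt7 rose from a median of 21.7 to 400.1 (log2 fold change 4.40 ± 0.34, adjusted p = 4.7e-06). Krt18 had 338 to 1022 normalized counts at day 0 (median 551) and 2590.0 to 23242 at day 7 (median 4164) (log2 fold change 3.28 ± 0.32, adjusted p = 1.7e-05). Its partner Krt8 rose from a median of 252 to 1660.0 (log2 fold change 2.85 ± 0.37, adjusted p = 0.00015). Both had their highest day 7 value in Cdc14ab KO clone 3, and the other lines were also all above their day 0 level. Gata3, a transcription factor of trophoblast and other lineages, rose from a median of 23.5 to 298 (log2 fold change 3.72 ± 0.24, adjusted p = 1.2e-06). The trophectoderm determinant Cdx2 had medians of 5.54 and 6.03 and did not pass (log2 fold change 0.89 ± 0.55, adjusted p = 0.23), nor did Eomes (log2 fold change -0.10 ± 0.37, adjusted p = 0.86). Of the endoderm list, Foxa2, which also marks the floor plate of the neural tube, rose from a median of 6.29 to 67.8 (log2 fold change 3.22 ± 0.37, adjusted p = 5.9e-05). Sox17, Gata4 and Afp were not tested, being absent from the genes listed or below the filter on low values. The mesoderm genes Hand1 and Meox1 rose from a median of 4.75 to 62.5 and from a median of 1.94 to 53.7 (adjusted p = 7.9e-05 and 0.00013). Both needed day 7 libraries to pass the filter, which favours a higher level there. The primitive streak gene T, with a day 2 median of 23.2, fell from a median of 6.75 to 0.506 (adjusted p = 0.004).

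Extracellular matrix genes rose as well. Basement membrane genes were 12 higher and 2 lower of 19 (median 0.88). Among the 17 that also passed the filter at day 0, 10 were higher and 2 lower. Col4a1 and Col4a2, the paired chains of type IV collagen, rose together. Col4a1 went from a median of 53 to 455 (log2 fold change 3.11, adjusted p = 7.2e-06) and Col4a2 from a median of 14.4 to 286 (log2 fold change 4.17, adjusted p = 4.4e-06). Serpinh1, the collagen chaperone HSP47, rose from a median of 561 to 3209 (log2 fold change 2.69 ± 0.26, adjusted p = 1.5e-05). Sparc, which binds collagen, had 1768 to 6107 normalized counts at day 0 (median 2416) and 6230.3 to 13914 at day 7 (median 8248) (log2 fold change 1.76 ± 0.20, adjusted p = 5.1e-05). All 4 were free of overlap between days. Nid2, a linker of laminin and collagen IV, fell in 7 of 8 lines (log2 fold change -1.96 ± 0.32, adjusted p = 0.00062). Markers of fibroblasts, the cell type of the feeders, moved mostly in the same direction: 16 higher and 3 lower of 25 (median 1.38), and 11 and 3 of the 18 that also passed the filter at day 0. Their summed level was 2165 to 4446 normalized counts over the day 0 libraries and 3104 to 10302 over the day 7 libraries, and none of the 25 was at 0 in all day 0 libraries. Acta2, smooth muscle actin, rose from a median of 66 to 898 (log2 fold change 4.13 ± 0.29, adjusted p = 1.9e-06). Col1a1, a chain of type I collagen, rose from a median of 96 to 1532 (log2 fold change 3.52 ± 0.39, adjusted p = 4.7e-05). Dcn and Lum, defining markers of fibroblasts, had day 7 medians of 67.3 and 8.82. Both were called higher, but not in all 8 lines (log2 fold change 2.18, adjusted p = 0.0027; log2 fold change 2.92, adjusted p = 0.0033 for Lum). Of the 3 lower members, S100a4 fell in all 8 lines (log2 fold change -2.985, adjusted p = 0.00013). The others were Thy1 (log2 fold change -1.26, adjusted p = 0.042) and Fbln2 (log2 fold change -1.675, adjusted p = 0.018). The part of remaining feeder cells in these rises was not tested.

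**Figure D3:**
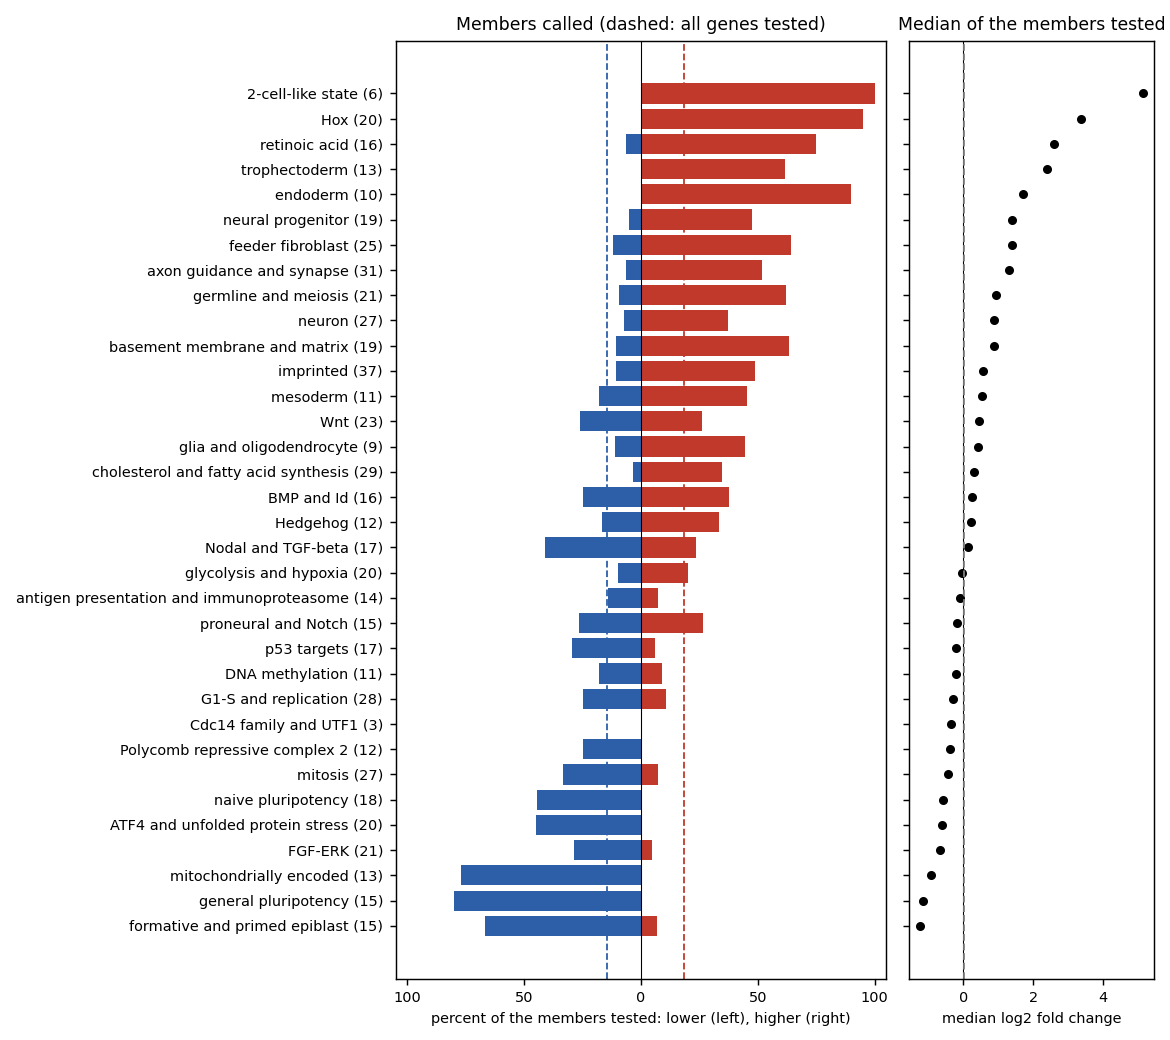
For each of the 34 gene lists, with the number of members tested in brackets, the percent of members higher (red, right) and lower (blue, left) at day 7 and, in the right panel, the median log2 fold change. Dashed lines give the same for all genes tested, 18.3% higher, 14.5% lower and a median of 0.03; the 2-cell-like, Hox and retinoic acid lists have the highest medians and the general pluripotency and epiblast lists the lowest.

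Genes of the 2-cell-like state, a rare condition of ES cells that carries transcripts of the 2-cell embryo, were near 0 at day 0. Only 6 of the 12 on the list were among the genes listed. All 6 passed the filter on low values by their day 7 libraries. The filter itself therefore set that they were higher at day 7 (median 5.15, and 3.40 with a pseudocount of 5). Tmem92 had the largest rise of all genes named here, from 0 to 2.53 normalized counts at day 0 (median 0.976) to 38.2 to 469.6 at day 7 (median 206) (log2 fold change 6.54 ± 0.44, adjusted p = 1.5e-06). Zscan4c, which acts in telomere upkeep in such cells, had a read in 1 of the 8 day 0 libraries and 7.32 to 84.8 normalized counts (median 53.2) at day 7 (adjusted p = 1.1e-05). Tcstv1 and Zfp352 went the same way, to day 7 medians of 84.8 and 19.5 (adjusted p = 2.4e-06 and 6e-05). Duxf3, of the DUX family that switches this program on, rose from a median of 1.13 to 86.6 (adjusted p = 5.1e-05). Zscan4 genes, Tcstv1 and Duxf3 belong to families of near-identical copies, and their counts are uncertain where reads were shared between copies.

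Germline genes were 13 higher and 2 lower of 21 (median 0.92). Beside Stra8, they included X-linked homeobox genes of the Rhox cluster. Rhox5 had 2024 to 7201 normalized counts at day 0 (median 5519) and 7251 to 24724 at day 7 (median 16227) (log2 fold change 1.70 ± 0.32, adjusted p = 0.0017). Rhox6 and Rhox9 rose further. Rhox6 went from a median of 215 to 3145 (log2 fold change 4.22, adjusted p = 7.5e-05) and Rhox9 from a median of 165 to 2766 (log2 fold change 4.19, adjusted p = 0.00011). They are close copies of each other, so the split of reads between them is uncertain. Dazl, an RNA-binding protein of germ cells, and Taf7l, a germ cell subunit of the general transcription factor TFIID, rose from a median of 13.9 to 78.9 and from a median of 26.6 to 184 (adjusted p = 0.00028 and 6e-05). Fthl17a, an X-linked ferritin-like gene with close copies, was not on the list and was among the 15 largest rises, from a median of 3.57 to 109.7 (log2 fold change 5.24 ± 0.51, adjusted p = 1.8e-05). It needed day 7 libraries to pass the filter, which favours a higher level there. Sycp3, of the meiotic chromosome axis, and Tdrd12, of the piRNA pathway, were the members that fell, the latter from a median of 652 to 285 (log2 fold change -1.36 ± 0.19, adjusted p = 0.00019).

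Imprinted genes, expressed from only the maternal or the paternal copy, were 18 higher and 4 lower of 37 (median 0.57). Among the 35 that also passed the filter at day 0, 16 were higher and 4 lower. H19, a maternally expressed long noncoding RNA at chr7:142575529-142578143 on the minus strand (GRCm38), had 341 to 1409 normalized counts at day 0 (median 771) and 16725 to 41752 at day 7 (median 29670.0). It had the smallest adjusted p of all genes named here (log2 fold change 5.24 ± 0.23, adjusted p = 8.4e-08) and the largest rise in level of the shared genes. Each of the 8 lines rose by 4.19 to 6.55 on the log2 scale. Its neighbour Igf2 was not among the genes listed, so its level is not known here. The paternally expressed Peg10 rose from a median of 299 to 2071 (log2 fold change 3.13, adjusted p = 8.4e-06) and Dlk1, also paternally expressed, from a median of 75.8 to 684 (log2 fold change 3.09, adjusted p = 4.3e-05). Cdkn1c, a maternally expressed inhibitor of cyclin-dependent kinases, rose from a median of 223 to 1676 (log2 fold change 3.11, adjusted p = 2.9e-05). Meg3, a maternally expressed noncoding RNA of the Dlk1 region, stood at medians of 14363 and 11502 and did not pass over the 8 lines (log2 fold change -0.56 ± 0.32, adjusted p = 0.2).

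Mir351, the 1 higher gene among 26 miRNA genes tested, of which 10 were lower, had 0 to 8.54 normalized counts at day 0 (median 3.78) and 177 to 1467 at day 7 (median 257) (log2 fold change 6.09 ± 0.39, adjusted p = 1.2e-06). The locus needed day 7 libraries to pass the filter on low values, which favours a higher level there. The kit primes on poly(A), so the reads of Mir351 come from polyadenylated RNA that crosses the locus and do not measure the mature miRNA. Its mature sequences are given since the locus was among the 15 largest rises (RefSeq, GRCm38.p6, minus strand, seed bases 2 to 8 in capitals):
mmu-miR-351-5p, chrX:53053315-53053338: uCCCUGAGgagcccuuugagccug
mmu-miR-351-3p, chrX:53053276-53053296: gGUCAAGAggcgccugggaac

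Of the remaining 15 largest rises, Nkx2-3, a homeodomain factor of gut and spleen, went from 0 to 7.13 normalized counts at day 0 to 19.3 to 902 at day 7 (log2 fold change 6.15 ± 0.72, adjusted p = 6.4e-05). Csf1r, the receptor of macrophage colony-stimulating factor, rose from a median of 1.94 to 108 (log2 fold change 5.61 ± 0.44, adjusted p = 4.7e-06). Slc6a2, the noradrenaline transporter, rose from a median of 2.11 to 117 (log2 fold change 5.58 ± 0.52, adjusted p = 1.2e-05). Pantr1, a long noncoding RNA, had a read in 3 of the 8 day 0 libraries and 4.05 to 1149 normalized counts at day 7 (adjusted p = 0.00024). BC080695, of a family with close copies, had a read in 2 day 0 libraries and a day 7 median of 109 (adjusted p = 4e-06). Nkx2-3, Csf1r, Slc6a2, Pantr1 and BC080695 all needed day 7 libraries to pass the filter on low values, which favours a higher level there. By change in level rather than ratio, the largest rises after H19 and Rhox5 were in Mfge8 and Ccnd3. Mfge8, a secreted protein that binds phosphatidylserine, went from a median of 2454 to 11027 (log2 fold change 1.99 ± 0.20, adjusted p = 2.3e-05). Ccnd3, cyclin D3, went from a median of 5687 to 13690.0 (log2 fold change 1.29 ± 0.20, adjusted p = 0.00041). Sin3b, a corepressor scaffold, had 4708 to 27510.0 normalized counts at day 7 (median 5706), the highest of them in Cdc14ab KO clone 3 (log2 fold change 1.77 ± 0.28, adjusted p = 0.00048).

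General pluripotency genes fell, and no member of the general or naive lists rose. Of 15 general pluripotency genes tested 12 were lower at day 7 (median log2 fold change -1.15), and of 18 naive genes 8 were lower (median -0.57, and 0.05 with the clone 1 lines alone). Of 15 formative and primed epiblast genes 10 were lower and 1 (Cdh2, N-cadherin) higher (median -1.24). Pou5f1 had 13594 to 39102 normalized counts at day 0 (median 18099) and 4842 to 9638 at day 7 (median 7218), with every day 7 library below every day 0 library (log2 fold change -1.52 ± 0.20, adjusted p = 0.00018). Sox2, also a factor of neural progenitors, fell from a median of 1851 to 958 (log2 fold change -1.15 ± 0.23, adjusted p = 0.0024). Tdgf1, the Nodal co-receptor CRIPTO, fell from a median of 1582 to 496 (log2 fold change -1.81 ± 0.18, adjusted p = 1.9e-05). Epcam and Cdh1, the adhesion molecules of epithelial ES cell colonies, fell from a median of 1359 to 508 and from a median of 11904 to 6347 (adjusted p = 0.00035 and 0.0022). Nanog stood at 119 to 378 (median 271) at day 0 and 148 to 1258 (median 271) at day 7. It was higher at day 7 in 3 lines and lower in 5 and did not pass (log2 fold change 0.41 ± 0.39, adjusted p = 0.44). Its highest day 7 values were in Cdc14b KO clone 1 and Cdc14ab KO clone 1.

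Naive factors split into those lower at day 7 than at day 0 and those that did not pass. Klf4 had medians of 2030.0, 367 and 629.8 at days 0, 2 and 7 and fell in all lines from day 0 to day 7 (log2 fold change -1.70 ± 0.28, adjusted p = 0.00062). Klf5 did so too, with medians of 1359, 384 and 418 (log2 fold change -1.83 ± 0.24, adjusted p = 0.00014). Tdh, threonine dehydrogenase, on which mouse ES cells depend, fell with no overlap from a median of 4195 to 886 (log2 fold change -2.27 ± 0.24, adjusted p = 2.9e-05). Zfp42 fell from a median of 699 to 288 (log2 fold change -1.22 ± 0.20, adjusted p = 0.00062). Its upstream window is shown because it holds an octamer, the site that POU factors such as OCT4 bind, in capitals (RefSeq, GRCm38.p6, minus strand):
Zfp42, chr8:43307178-43307205, octamer from base -186: ctgaagaggcATTTGCATaactgagcaa
The octamer, read on both strands, is in 1.73% of the 11031 windows. Tfcp2l1, Esrrb, Klf2 and Tbx3, also factors of the naive network, had medians of 1093, 318 and 1006, 1073, 424 and 734, 1225, 593 and 943 and 203, 52.6 and 253 on the 3 days. Each was lowest at day 2, and none passed the test of day 7 against day 0 (adjusted p = 0.83, 0.4, 0.46 and 0.077). The day 2 levels were not tested here.

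**Figure D4:**
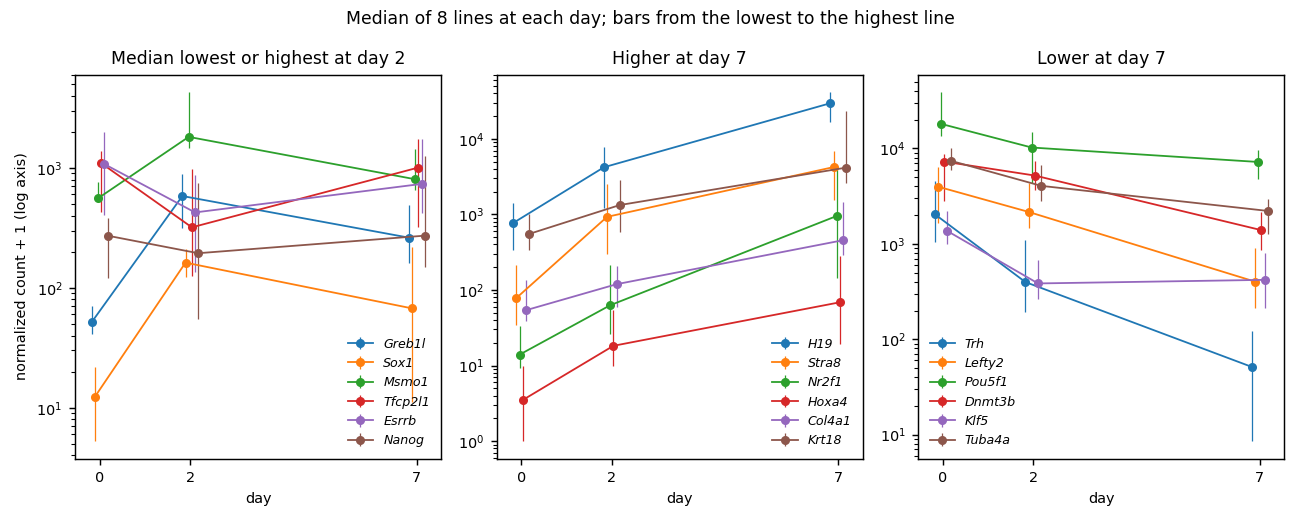
Normalized count + 1 (log axis) at days 0, 2 and 7: points are medians of the 8 lines and bars run from the lowest to the highest line. Left, genes whose median is highest (Greb1l, Sox1, Msmo1) or lowest (Tfcp2l1, Esrrb, Nanog) at day 2; middle and right, genes higher and lower at day 7, with H19 rising from a median of 771 to 29670.0 and Trh falling from 2045 to 50.2.

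Formative genes, which rise for a time after naive exit in culture, were also low at day 7. Dnmt3b, the de novo DNA methyltransferase, had 2840.2 to 8801 normalized counts at day 0 (median 7280.0) and 865 to 2164 at day 7 (median 1390.4) (log2 fold change -2.22 ± 0.23, adjusted p = 3e-05). Pou3f1 (OCT6) had medians of 1262, 1828 and 302 at days 0, 2 and 7 and Lin28a, an RNA-binding protein, of 2024, 2768 and 699, both highest at day 2. Both were lower at day 7 than at day 0 in every line (log2 fold change -1.84, adjusted p = 0.00021; log2 fold change -1.36, adjusted p = 0.00094 for Lin28a). Fgf5 and Otx2 fell from a median of 14.2 to 3.81 and from a median of 679 to 305 (adjusted p = 0.005 and 0.0053). The largest fall of the genes named here was in Trh, thyrotropin-releasing hormone, at chr6:92242061-92244650 on the minus strand (GRCm38). It had 1038 to 4508 normalized counts at day 0 (median 2045) and 7.55 to 121 at day 7 (median 50.2) (log2 fold change -5.56 ± 0.47, adjusted p = 7.2e-06). The type I keratins Krt17 and Krt42 fell, opposite to Krt8 and Krt18. Krt17 went from a median of 83.3 to 3.71 (log2 fold change -4.21, adjusted p = 5.6e-06) and Krt42 from a median of 194 to 11.4 (log2 fold change -3.82, adjusted p = 2.6e-06). Fut9, whose enzyme makes the stage-specific antigen SSEA-1 of mouse ES cells, fell from a median of 79.3 to 6.75 (log2 fold change -3.33 ± 0.32, adjusted p = 1.7e-05). Slc27a2, a fatty acid transporter and ligase, Gpx2, a glutathione peroxidase, and Cbr3, a carbonyl reductase, were also among the 15 largest falls, with day 7 medians of 5.02, 24.6 and 25.9 after 88.1, 181 and 161 at day 0.

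Each signalling list held genes that rose and genes that fell. Of 17 Nodal and TGF-beta genes 7 were lower and 4 higher (median 0.13). The ligand Nodal and its antagonist and target Lefty2 fell. Lefty2 went from 1663 to 6439 normalized counts at day 0 to 212 to 904 at day 7 (log2 fold change -2.99 ± 0.29, adjusted p = 1.9e-05). Nodal went from a median of 1039 to 727 (log2 fold change -0.87 ± 0.18, adjusted p = 0.0031). The ligand Tgfb2 rose from a median of 28.9 to 335 (log2 fold change 3.23 ± 0.36, adjusted p = 4.7e-05). In the FGF-ERK list 6 genes were lower and 1, the receptor Fgfr3, higher of 21 (median -0.67). Some genes that active ERK switches on were among those that fell. The feedback inhibitor Spry4 fell from a median of 57.3 to 15.2 (log2 fold change -2.15 ± 0.28, adjusted p = 0.00012). The immediate early gene Egr1 fell from a median of 306 to 89.6 (log2 fold change -1.80 ± 0.22, adjusted p = 8.3e-05) and the transcription factor Etv5 from a median of 4808 to 2497 (log2 fold change -0.94 ± 0.15, adjusted p = 0.00051). Other ERK feedback genes did not pass, such as Spry1 (log2 fold change 0.55, adjusted p = 0.21) and Etv4 (log2 fold change -0.49, adjusted p = 0.25). In the BMP list 6 were higher and 4 lower of 16 (median 0.25). The ligands Bmp4 and Bmp7 rose in 7 of 8 lines each (log2 fold change 1.47, adjusted p = 0.0043; log2 fold change 1.14, adjusted p = 0.0069 for Bmp7). The antagonist Grem1 and the inhibitory Smad7 fell (log2 fold change -2.69, adjusted p = 0.00026; log2 fold change -1.66, adjusted p = 0.002 for Smad7). The Wnt list gave 6 higher and 6 lower of 23 (median 0.44, and -0.64 when only genes with at least 50 normalized counts were tested). Its 21 members that also passed the filter at day 0 included 4 higher and 6 lower. Frzb, a secreted Wnt antagonist, rose from a median of 10.8 to 234 (log2 fold change 4.39 ± 0.44, adjusted p = 2.2e-05). The receptor Fzd5 fell from a median of 282 to 112 (log2 fold change -1.46 ± 0.26, adjusted p = 0.0012). The Hedgehog list of 12 had 4 higher and 2 lower (median 0.22). Its 10 members that also passed the filter at day 0 included 2 higher and 2 lower. The co-receptors Boc, Gas1 and Cdon rose in all lines (log2 fold change 3.62, adjusted p = 1.5e-05; log2 fold change 2.18, adjusted p = 0.00078 for Gas1; log2 fold change 0.90, adjusted p = 0.0043 for Cdon). The pathway target Gli1 fell in 7 of 8 lines from a median of 915 to 251 (log2 fold change -1.84 ± 0.43, adjusted p = 0.0065).

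Most cell cycle genes did not pass the test. Mitosis genes were 9 lower and 2 higher of 27 (median -0.44), and genes of the G1-S transition and replication 7 lower and 3 higher of 28 (median -0.31). Kif11, a spindle motor, fell from a median of 283 to 135 (log2 fold change -0.97 ± 0.18, adjusted p = 0.0014). Mcm7, of the replicative helicase, fell from a median of 2091 to 1092 (log2 fold change -1.25 ± 0.26, adjusted p = 0.0035). Ccnd1, cyclin D1, fell from a median of 1338 to 439 (log2 fold change -1.15 ± 0.24, adjusted p = 0.0033), opposite to cyclin D3. Cdc25b, the phosphatase that starts mitosis, rose in all lines (log2 fold change 1.09 ± 0.17, adjusted p = 0.00057). Mybl2, a cell cycle transcription factor abundant in ES cells, was among the 10 largest falls in level, from a median of 11406 to 4682 (log2 fold change -1.51 ± 0.21, adjusted p = 0.00025). So were Ptma, prothymosin alpha, from a median of 39831 to 18456 (log2 fold change -1.17 ± 0.22, adjusted p = 0.0016), and Ncl, nucleolin, from a median of 28314 to 16082 (log2 fold change -0.96 ± 0.18, adjusted p = 0.0015).

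Chromatin lists stood near the background. Of 12 genes of Polycomb repressive complex 2 and its partners 3 were lower and 0 higher (median -0.39). The core subunit Eed fell from a median of 495 to 207 (log2 fold change -1.07 ± 0.30, adjusted p = 0.015), a call that was lost over the 4 genotype pairs. None of the 12 moved the same way in all 8 lines while passing the test. Of 11 DNA methylation genes 2 were lower and 1 higher (median -0.21), the lower ones being Dnmt3b and Tet1, an oxidase of methylcytosine (from a median of 1364 to 378, log2 fold change -1.82 ± 0.27, adjusted p = 0.00035). ATF4 targets and genes of protein stress were 9 lower and 0 higher of 20 (median -0.60). Atf4 itself fell from a median of 6216 to 3775 (log2 fold change -0.71 ± 0.20, adjusted p = 0.014). Of 17 p53 genes 5 were lower and 1 higher (median -0.20). Trp53, which encodes p53, fell from a median of 215 to 85.7 (log2 fold change -1.70 ± 0.24, adjusted p = 0.00023). The pro-apoptotic Bax fell from a median of 871 to 435 (log2 fold change -1.23 ± 0.30, adjusted p = 0.0073). Cdkn1a (p21) did not pass. Antigen presentation genes stood near the background with 2 lower and 1 higher of 14 (median -0.10).

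Of 29 cholesterol and fatty acid genes 10 were higher and 1 lower (median 0.29). Scd1 and Fdft1, of fatty acid desaturation and squalene synthesis, rose with no overlap (log2 fold change 1.08, adjusted p = 0.0011; log2 fold change 0.96, adjusted p = 0.0027 for Fdft1). Both were higher still at day 2, with medians of 257, 867 and 575 and 1036, 2570.3 and 1879 at days 0, 2 and 7. Msmo1, a sterol oxidase, showed the same order (557, 1813 and 803). Glycolysis and hypoxia genes were near the background, with 4 higher and 2 lower of 20 (median -0.03). Hexokinase 1 (Hk1) rose from a median of 431 to 1212 (log2 fold change 1.56 ± 0.18, adjusted p = 5e-05) and enolase 1 (Eno1) fell from a median of 1151 to 383 (log2 fold change -1.68 ± 0.19, adjusted p = 5.9e-05).

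Mitochondrial and small noncoding transcripts fell alongside. Of 13 genes in the mitochondrially encoded list 10 were lower and 0 higher (median -0.93), and the ribosomal RNA gene mt-Rnr1 fell from a median of 10775 to 4665 (log2 fold change -1.47 ± 0.27, adjusted p = 0.0013). Of 89 small nucleolar RNA genes 39 were lower and 0 higher, and of 17 small nuclear RNA genes 11 were lower and 0 higher. The share of reads on Gm42418 was 2.36% to 8.70% over the day 0 libraries and 1.78% to 4.21% over the day 7 libraries, and Gm42418 itself fell by 0.94 on the log2 scale (adjusted p = 0.013). Small nuclear, small nucleolar and ribosomal RNAs are poor templates for a poly(A)-primed kit, and the part of RNA quality or of priming in their fall was not tested. By chromosome, the share of higher genes ran from 12.8% of 758 genes on chromosome 17 to 23.5% of 456 on chromosome 16, with 23.4% of 1260 on chromosome 11 and 22.7% of 542 on X, against 18.3% of all. None of the 24 mitochondrial genes was higher.

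Some genes moved by nearly the same amount in every line. Among the candidates with a change of at least 2 on the log2 scale, Srr, serine racemase, had the smallest standard deviation of the 8 line changes, 0.35, about a log2 fold change of 2.35 (from a median of 30.7 to 149). Fignl2 rose from a median of 67.2 to 679.6 (SD 0.38, log2 fold change 3.27 ± 0.18, adjusted p = 3.9e-07). The kinase gene Nuak1 rose from a median of 82.3 to 569 (SD 0.36, log2 fold change 2.73 ± 0.18, adjusted p = 1.2e-06). Platr10, a pluripotency-associated noncoding RNA, fell from a median of 704 to 112 (SD 0.36, log2 fold change -2.48 ± 0.17, adjusted p = 2e-06). Greb1l, a developmental regulator linked to retinoic acid signalling, rose by 1.80 to 2.99 in the 8 lines and had medians of 50.8, 582 and 261 at days 0, 2 and 7. At the other end, Pantr1, Hoxb3, Nkx2-3 and the neuronal factor Ebf2 rose in all lines with standard deviations of 2.98, 2.75, 2.63 and 2.37. Tox2 was also among these, with changes of 0.32 to 6.88.

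**Figure D5:**
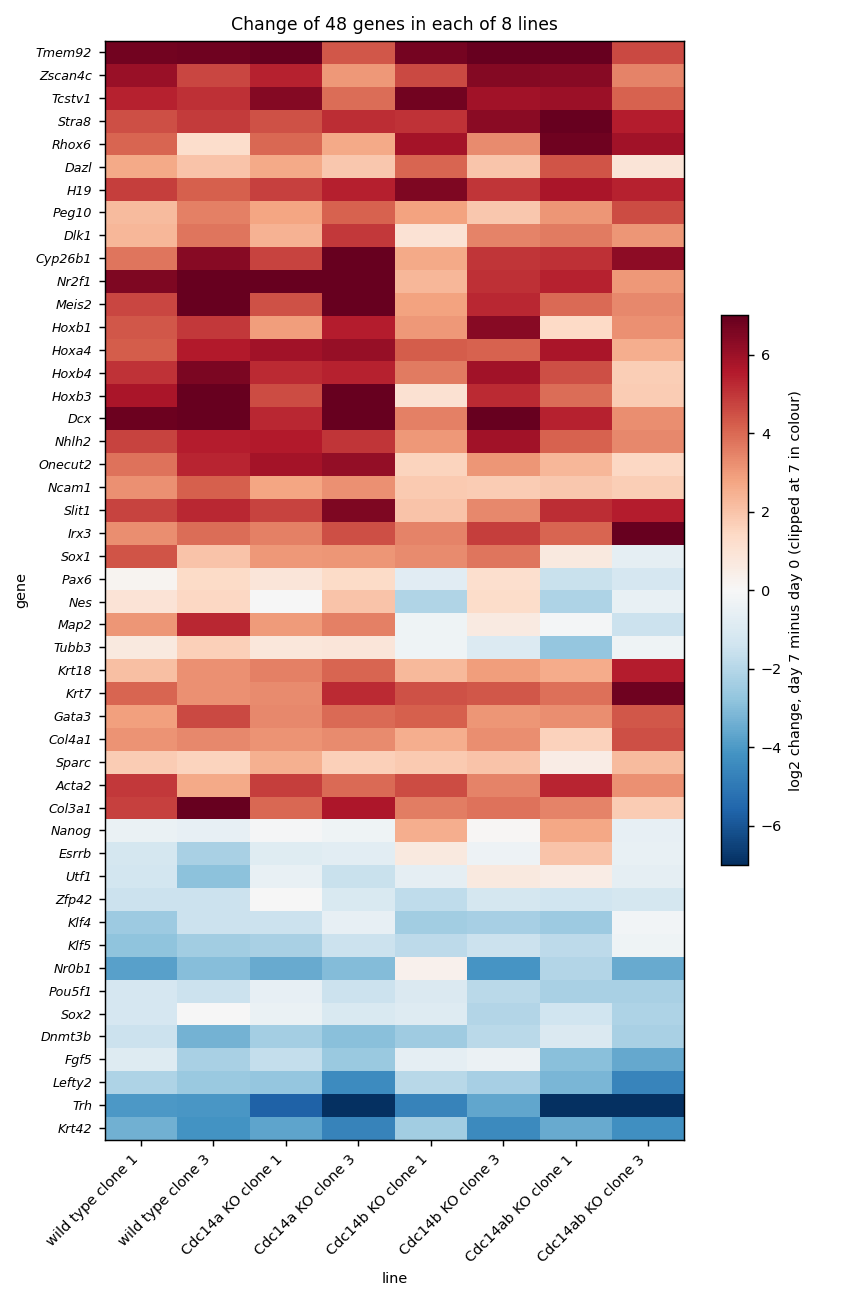
Log2 change from day 0 to day 7 (colour, clipped at 7) of 48 genes (rows) in each of the 8 lines (columns). Retinoic acid, Hox, imprinted and 2-cell-like genes are red in every column, Sox1, Pax6, Nes, Map2, Tubb3, Nanog, Esrrb, Utf1 and Nr0b1 change sign between lines, and the core pluripotency and epiblast genes are blue in nearly all.

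Whether the change with day depended on genotype was tested with terms for the change with day by Cdc14b status and by Cdc14a status. The change differed with Cdc14b status in 756 genes (4.75%), 434 with a higher and 322 with a lower change in the 4 null lines. Of these 756 genes, 574 had not passed the test of day itself. Among the 3069 shared genes 57 (1.86%) had such a difference, 39 with a smaller and 18 with a larger change in the null lines. This result rested on single lines. Without wild-type clone 3 the count over all genes was 1, and without Cdc14a KO clone 1 or 3 it was 20 and 22. It was 229 and 406 without Cdc14b KO clone 1 or 3, and 1309 without Cdc14ab KO clone 3. Without the spread model that lets variance follow level and weighs down extreme genes it was 40. With Cdc14a status 0 genes passed in limma, 842 had an unadjusted p under 0.05, and edgeR and DESeq2 on the recovered reads called 0 and 1.

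The genes described next were named in part by the size of this difference, while Dcx, Nhlh2, Slit1 and Sox1 did not pass the interaction test (adjusted p = 0.3, 0.42, 0.25 and 0.33). Nr2f1 rose by 7.71 in the 4 Cdc14b-intact lines and 3.95 in the 4 Cdc14b-null lines (interaction -3.76 ± 0.74, adjusted p = 0.025). Onecut2 changed by 5.28 in the intact and 2.10 in the null lines (interaction -3.17 ± 0.60, adjusted p = 0.024). Elavl4 changed by 4.57 in the intact and 1.53 in the null lines (interaction -3.04 ± 0.56, adjusted p = 0.022). Ednrb, the endothelin receptor of neural crest and glia, and Pou3f2 (BRN2), a neuronal factor, were named by the size of their difference. Ednrb changed by 7.28 in the intact and 2.48 in the null lines (interaction -4.79 ± 0.72, adjusted p = 0.014). Pou3f2 changed by 6.02 in the intact and 1.21 in the null lines (interaction -4.81 ± 0.99, adjusted p = 0.028). Of the genes that had not passed over all lines, Map2 changed by 3.71 in the intact and -0.33 in the null lines (interaction -4.04 ± 0.51, adjusted p = 0.011). Tubb3 changed by 1.00 in the intact and -1.06 in the null lines (interaction -2.06 ± 0.47, adjusted p = 0.035). Ly6h, a membrane protein of neurons, changed by 5.88 in the intact and 0.48 in the null lines (interaction -5.40 ± 0.66, adjusted p = 0.011). Dusp2 and Psmb9 differed in the other direction. Dusp2, a phosphatase of MAP kinases, changed by -3.81 in the intact and 0.40 in the null lines (interaction 4.21 ± 0.64, adjusted p = 0.014). Psmb9, an immunoproteasome subunit, changed by -3.29 in the intact and 0.93 in the null lines (interaction 4.22 ± 0.66, adjusted p = 0.015).

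Over all 15919 genes the changes of 2 lines correlated with Pearson's r of 0.127 to 0.799 in the 28 pairs of lines, a description across genes, which are not independent replicates. The 2 clones of a genotype correlated at 0.653 (wild type), 0.617 (Cdc14a KO), 0.477 (Cdc14b KO) and 0.419 (Cdc14ab KO). The pairs with the same clone number and the same Cdc14b status correlated at 0.765, 0.799, 0.587 and 0.559, each above the sister clones of either genotype. What the clone number stands for beyond the clone is not given in the labels. With clone number added to the model as a term with day, 61 genes differed in their change between clones 1 and 3. An unadjusted p under 0.05 for that limma term was found in 1962 of the 15919 genes.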

How the data were processed

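Poly(A)-primed 3′ end libraries were processed by the authors before deposit; the submitters' processing notes list HTSeq 0.6.1 and DESeq2, the genome build GRCm38, and also TopHat2 2.0.10 beside Bowtie 1.0.0. The deposited table holds a signal per gene and library, read counts divided by a size factor, since dividing by each library's smallest step gave whole reads within 0.001. Of the gene symbols, 17473 (99.6%) were found in GENCODE M21. No column belonged to other samples.

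Genes with at least 10 normalized counts in 2 or more of the 16 libraries were tested on log2(normalized count + 1) with limma 3.58.1 in R 4.3.3 (trend and robust, a block per line, 7 residual degrees of freedom), with Benjamini-Hochberg adjustment over 15919 genes and a threshold of 0.05. The pairing comes from the lines: the labels give the same genotype and clone on both days (correlation of same-line deviations from the day means -0.025 to 0.071). Clones are separate lines, but nothing says that cultures were repeated, so p-values measure the spread between lines. On data simulated from these libraries over 15669 genes, the same test recovered 27.5% of changes of 2-fold, 80.8% of 4-fold and 97.3% of 8-fold, at a mean of 6.2 false calls. Far fewer genes were changed in the simulated data than were called in the real data. The adjustment over all genes depends on that share, so these rates do not carry over to the real calls.

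Genes were named by rule among shared genes with separate days and a mean of 20 or more counts: the 15 largest changes each way, the 10 largest in level, the 8 least and most variable, up to 6 members of each list by adjusted p with defining members, and the largest interactions, without predicted genes and pseudogenes and fewer where space was short. Tgm2, Fthl17a, Sycp3 and other genes named for an exception, a day 2 course or a sequence were chosen after their values were seen. The members and lists were chosen with earlier results of these data known. Alternatives were edgeR 4.0.16 and DESeq2 1.42.0 on recovered reads, TMM factors, other pseudocounts and filters, limma's treat, other blocks and leaving out lines.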

Additional observations from a re-analysis of the deposited data

Results flagged for a closer look

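For each of the named genes, the 8 line changes (log2, day 7 minus day 0) were searched for a line far from the other 7 by Dixon's criterion, which chance meets in about 1 of 20 genes, and 14 genes met it. Cdc14ab KO clone 3 had the highest change of 5 genes. It was 9.69 for Slc6a2 against 3.92 to 5.88 in the other lines, and 7.46 for Irx3 against 3.24 to 4.85. For Krt8 it was 5.64 against 1.42 to 3.41, for Sin3b 3.91 against 0.92 to 2.08 and for Btg2 2.30 against 0.45 to 1.24. Cdc14ab KO clone 1, whose day 0 library stood apart, had the lowest change of 3 genes: -3.04 for Mybl2 against -1.51 to -0.83, -3.59 for Bax against -1.43 to -0.35, and 0.54 for Sparc against 1.58 to 2.51. In Cdc14b KO clone 1 the change of Nr0b1, a factor of the naive network, was 0.28 while the other 7 lines lay between -4.14 and -2.06, and that of Nid2 was 0.38 against -2.86 to -1.71. Cdc14b KO clone 3 had the lowest change of Smad7, -3.95 against -2.09 to -0.50, and the highest of Msmo1, 1.14 against 0.30 to 0.66. Cdc14a KO clone 1 had the lowest change of Grem1, -5.26 against -2.82 to -1.68, and the highest of Zfp42, -0.017 against -1.78 to -1.06.

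For 20 of 159 named genes the day 7 change differed between the 4 lines without Cdc14b and the 4 with it, by the limma interaction, beside 4.75% of all genes tested. Ly6h, Pou3f2, Ednrb, Psmb9 and Dusp2 were named because of it, so the count supports nothing. The differences, null minus intact on the log2 scale, were negative for 17. They were -5.40 for Ly6h, -4.81 for Pou3f2, -4.79 for Ednrb, -4.57 for Pantr1, -4.20 for Tox2, -4.04 for Map2 and -3.76 for Nr2f1. For Ebf2 the difference was -3.62, for Onecut2 -3.17, for Elavl4 -3.04, for Gli1 -2.74, for Tubb3 -2.06, for Meg3 -2.05, for Fgfr3 -1.95, for Ncam1 -1.53 and for Ptma -1.09. Cdc14b itself had a difference of -1.50, from a change of 0.39 in the intact and -1.11 in the null lines. The 3 positive differences were 4.22 for Psmb9, 4.21 for Dusp2 and 2.02 for Klf2. The number of such genes over the whole table fell to 1 without wild-type clone 3.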

How the results depend on the processing

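Of the 141 named genes called at day 7, 0 changed direction under any alternative, 141 kept the call in edgeR and in DESeq2 on the recovered reads, 139 without any single line (the exceptions were Olig1 and Olig2) 136 over the 4 genotype pairs (lost: Olig2, Lfng, Eed, Msmo1 and Ly6h), 115 and 123 with the clone 1 or clone 3 lines alone, and 83 when limma's treat asked for more than a 2-fold change. With 1 line left out, the count of changed genes ran from 4156 to 5417, of genes moving one way in all lines from 2914 to 3573, of genes with separate days from 1506 to 1811 and of Cdc14b interactions from 1 to 1309. Changed genes numbered 2342 and 3165 with the clone 1 or clone 3 lines alone and 628 with treat (615 of them moving the same way in all lines). Genes with separate days numbered 5177 over 4 genotype means, 4525 and 4520 with the clones alone, and 2091 without the lines high in Gm42418 at day 0, where fewer libraries are compared. The Cdc14b interaction gave 1664 genes in DESeq2, 491 in edgeR, 40 without trend and robust estimation and 449 without the Gm42418-high lines, and the Cdc14a interaction 1 in DESeq2. With no replicate block, so without the pairing by line, 5876 genes changed, 3129 of them the same way in all lines, and 1079 had a Cdc14b interaction. TMM factors moved the median change of all genes by 0.0047. Of 646 planned values of the 34 list medians 11 moved by more than the spread between lines, and 15 values over all alternatives had the other sign, in lists with medians near 0 and in the naive pluripotency and Wnt lists. Except where its construction shows it, the cause of these shifts was not tested. Genes at a few reads at day 0 are limited by depth.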
